A study of Saccharomyces pastorianus with 12 samples.

Results

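The zinc transport and IZH genes described here are 10 of the yeast genes of zinc uptake, storage, release and response: ZRT1, ZRT2, ZRC1, COT1, ZRT3, ZAP1 and IZH1 to IZH4. They were found by gene symbol in the annotation of the array, where each had 1 probe, so they make up 10 of 6051 measured rows, of which 5490 are named genes. The samples were lager brewing yeast (Saccharomyces pastorianus, also called Saccharomyces carlsbergensis) drawn from a production-scale beer fermentation at 12 times, namely 0, 1, 24, 48, 72, 96, 120, 144, 168, 192, 240 and 264 h, with total RNA on 1 array per time. All samples shared the same yeast and process as far as the labels say, and no genotype, treatment or separate batch was given. In such bulk RNA a lower level can mean less message per cell or fewer cells that carry it, and the arrays cannot tell these apart. The brewing strain is a hybrid, the probes carry Saccharomyces cerevisiae gene names, and copies from the other parent were not resolved.

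Zinc is a cofactor of many yeast enzymes, among them the alcohol dehydrogenases that make ethanol, and brewers watch it because worts poor in zinc can ferment slowly. In S. cerevisiae the factor Zap1 senses zinc and, when zinc is short, switches on the uptake transporters, the vacuolar exporter, its own gene and several IZH genes. The vacuole stores zinc and shields the cell from an excess. The Izh proteins are membrane proteins related to the progestin and adipoQ receptors of animals, and IZH genes respond to zinc and, in part, to fatty acids.

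A level below is the log2 intensity of a probe minus the log2 median of all genes on the same array. Array medians ran from 762 to 10142 intensity units, and the 240 h array had the narrowest spread of signals (standard deviation 0.67 log2 units) and the lowest rank correlation with the other arrays (median Spearman 0.252). For that reason each difference was also computed after quantile normalization, which gives all arrays the same distribution. No single time had a replicate, and the background signal was unknown. Of the 120 member values, 4 were among the dimmest 5% of their array. The 10 genes were chosen by their role in zinc handling with results from the intensities of these same 12 arrays already known, so their levels and differences are given as a description. Members were part of the fit across all genes below, and its counts are not used as support for any pattern among them.

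Over the whole fermentation 8 of the 10 genes spanned at least 4-fold between their lowest and highest array, where 54.9% of all genes did so. The median range was 2.88 log2 units for the 10 genes and 2.09 for all genes (2.69 and 2.08 after quantile normalization). IZH1 had the widest range, 5.25 log2 units or 38.1-fold, followed by IZH2 with 5.15 (35.6-fold), ZRT1 with 4.32 and IZH4 with 3.60 (12.1-fold). After quantile normalization these 4 ranges were 3.64, 4.95, 2.93 and 3.99. The range of COT1, 2.96 in median-centred values, was then 3.44 and wider than that of ZRT1. ZRT3 had the narrowest range, 1.62 log2 units, below that of most genes (1.17 after quantile normalization), and ZRT2 spanned 1.99. Of the 10 genes, 5 had their highest level at 168 h, where 14.9% of all genes did, and 4 had their lowest at the narrow 240 h array, where 13.2% did. After quantile normalization 1 of the 10 (ZRT1) was highest at 168 h, where 5.95% of all genes were, and 3 (ZRT1, IZH1 and IZH4) were lowest at 240 h, where 15.4% were. Without the 240 h array 7 of the 10 genes spanned at least 4-fold. The gene that left the count was ZRC1, with 1.73.

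**Figure D1:**
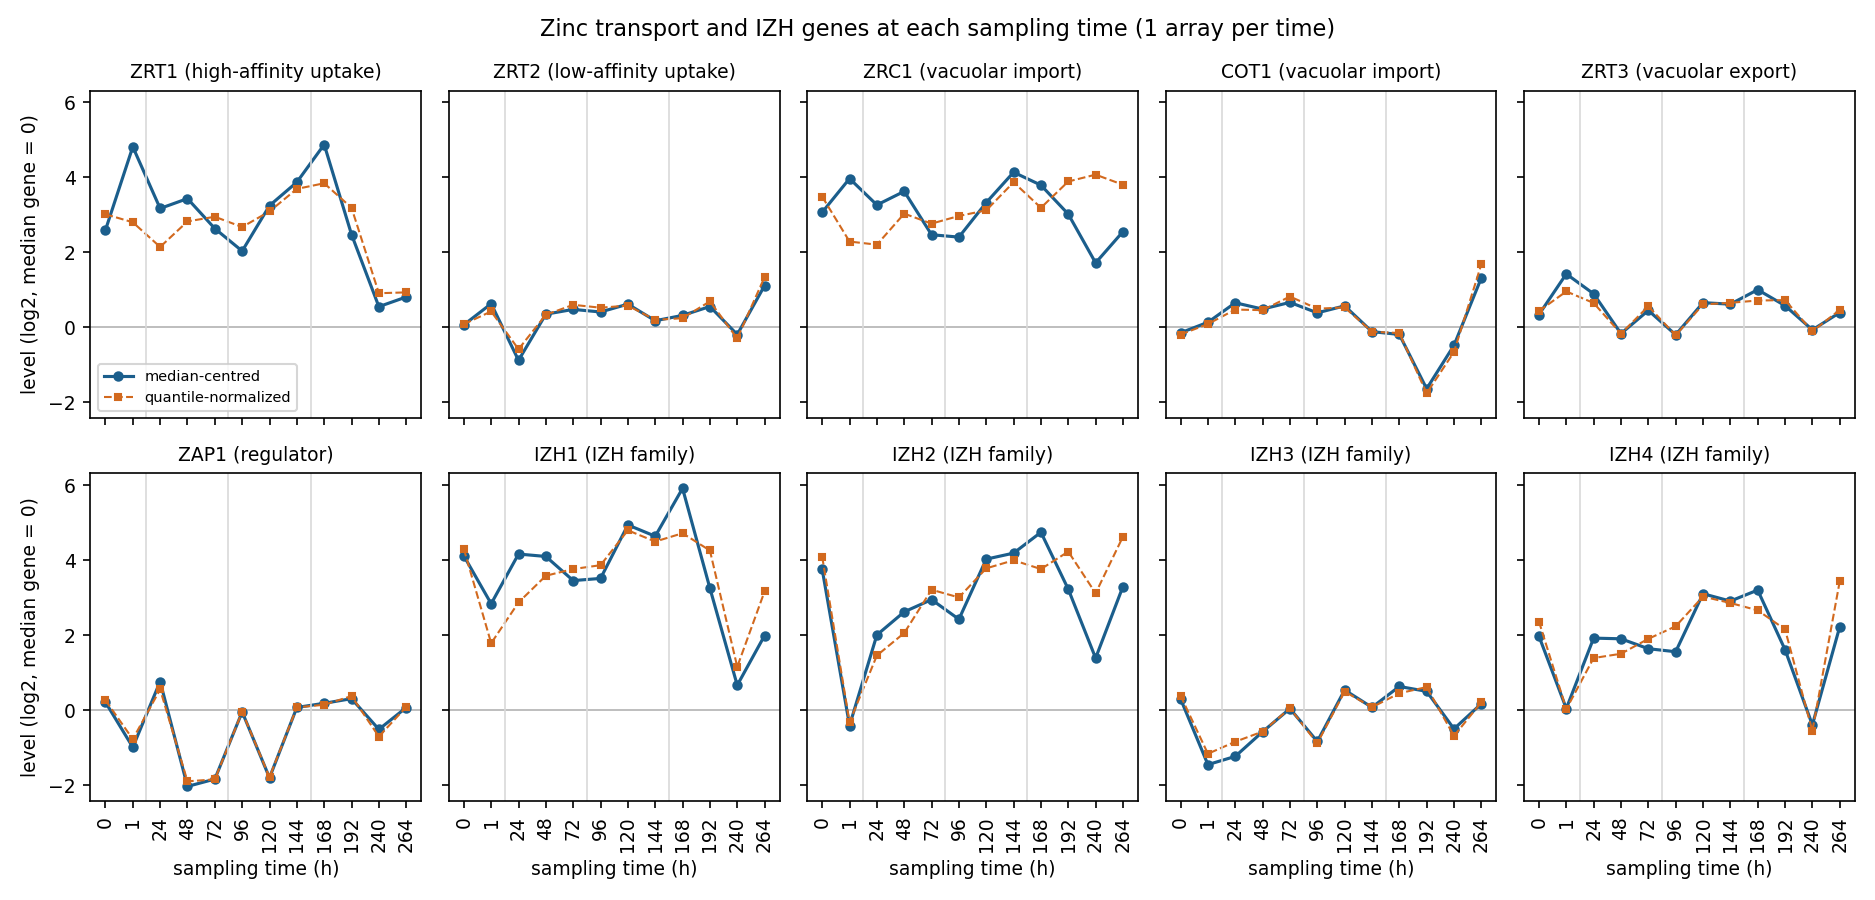
Level of each gene (log2, median gene of the array at 0) against sampling time in hours, equally spaced, with 1 point per array and vertical lines between the time windows. Solid lines with circles are median-centred and dashed lines with squares quantile-normalized. IZH2 is at -0.41 at 1 h and at 3.76 at 0 h, and the late decline of ZRC1 appears in median-centred values but not after quantile normalization.

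Uptake through the plasma membrane is the work of Zrt1, the high-affinity transporter that zinc-starved cells depend on, and of Zrt2, its low-affinity counterpart. ZRT1 stood at 2.59 at 0 h and 4.82 at 1 h, then at 3.17, 3.43 and 2.64 at 24, 48 and 72 h. At 96, 120 and 144 h it was at 2.03, 3.25 and 3.87, and at 168, 192, 240 and 264 h at 4.88, 2.48, 0.55 and 0.81. The course thus had high points at 1 h and 168 h, and its lowest values were those of the last 2 arrays. After quantile normalization the 1 h point was gone (3.02 at 0 h and 2.80 at 1 h), while the low end remained, with 3.19 at 192 h against 0.91 at 240 h and 0.93 at 264 h.

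The step of ZRT1 from 192 to 240 h was -1.92 log2 units, lower than that of all but 1.37% of genes, and -2.28 after quantile normalization. ZRT2 varied less. It was at 0.07 and 0.63 at 0 and 1 h, at -0.88, 0.35 and 0.48 from 24 to 72 h, at 0.41, 0.62 and 0.18 from 96 to 144 h, and at 0.32, 0.56, -0.19 and 1.11 from 168 to 264 h. Its lowest array was 24 h and its highest the last one, on which ZRT1 was near its own lowest. Over the 12 arrays the levels of the 2 uptake genes had a Pearson r of -0.05 (-0.02 after quantile normalization), as a description over arrays that each share one scaling.

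Zinc enters the vacuole through Zrc1 and Cot1, which also protect against excess zinc (and, for Cot1, cobalt), and leaves it through Zrt3. ZRC1 was at 3.07 and 3.97 at 0 and 1 h, at 3.26, 3.63 and 2.47 from 24 to 72 h, at 2.41, 3.33 and 4.14 from 96 to 144 h, and at 3.79, 3.02, 1.72 and 2.55 from 168 to 264 h. It was far above the median gene on every array. After quantile normalization its lowest levels were instead 2.29 and 2.21 at 1 and 24 h and its highest 4.07 at 240 h, so the time order of ZRC1 depended on the scaling.

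COT1 was at -0.15 and 0.13 at 0 and 1 h, at 0.66, 0.49 and 0.67 from 24 to 72 h, at 0.39, 0.57 and -0.11 from 96 to 144 h, and at -0.19, -1.64, -0.48 and 1.32 from 168 to 264 h. Its lowest and highest arrays were thus both in the last 4, at 192 h and 264 h, and quantile normalization left this order in place (-1.76 and 1.68). The 192 h signal was among the dimmest 5% of that array. ZRT3 was at 0.34 and 1.42 at 0 and 1 h, at 0.89, -0.17 and 0.45 from 24 to 72 h, at -0.20, 0.66 and 0.62 from 96 to 144 h, and at 1.00, 0.58, -0.07 and 0.39 from 168 to 264 h. Its highest array was 1 h, also after quantile normalization (0.96).

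ZAP1 encodes the zinc-responsive activator. It was at 0.22 and -0.99 at 0 and 1 h, at 0.77, -2.03 and -1.84 from 24 to 72 h, at -0.04, -1.80 and 0.07 from 96 to 144 h, and at 0.19, 0.31, -0.51 and 0.07 from 168 to 264 h. The 48, 72 and 120 h arrays were low, the 1 h array less so, and the arrays from 144 h on lay close together. The step from 24 to 48 h, -2.80 log2 units, was lower than that of all but 0.05% of genes. The signals at 48, 72 and 120 h were among the dimmest 5% of genes, near a background that is not known, so the depth of these low points cannot be told.

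The 4 IZH genes had a low point at 1 h in common, although the 240 h array was lower still for IZH1 and IZH4, as was the 264 h array for IZH1. IZH2, which encodes the best studied Izh protein (a receptor for the plant defence protein osmotin in S. cerevisiae), stood at 3.76 at 0 h and -0.41 at 1 h, or 27933 and 3825 intensity units. It was at 2.01, 2.63 and 2.95 at 24, 48 and 72 h, at 2.43, 4.03 and 4.19 at 96, 120 and 144 h, and at 4.75, 3.23, 1.39 and 3.30 at 168, 192, 240 and 264 h. The 1 h array was the lowest, followed by 240 h and then 24 h. After quantile normalization the 1 h level was -0.32, the 24 h level 1.46, and the 9 later arrays lay between 2.06 and 4.63.

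IZH1 was at 4.12 and 2.84 at 0 and 1 h, at 4.17, 4.10 and 3.46 from 24 to 72 h, at 3.52, 4.94 and 4.64 from 96 to 144 h, and at 5.92, 3.26, 0.67 and 1.99 from 168 to 264 h. Its steps of -2.66 from 168 to 192 h and -2.59 from 192 to 240 h were lower than those of all but 0.83% and 0.08% of genes. After quantile normalization they were -0.46 and -3.10. IZH4 was at 1.98 and 0.05 at 0 and 1 h, at 1.92, 1.91 and 1.64 from 24 to 72 h, at 1.56, 3.11 and 2.91 from 96 to 144 h, and at 3.21, 1.62, -0.39 and 2.22 from 168 to 264 h.

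IZH3 was at 0.30 and -1.45 at 0 and 1 h, at -1.23, -0.57 and 0.04 from 24 to 72 h, at -0.83, 0.54 and 0.08 from 96 to 144 h, and at 0.64, 0.50, -0.50 and 0.17 from 168 to 264 h. In S. cerevisiae IZH3 is not counted among the IZH genes that Zap1 activates, unlike the other three. In median-centred values IZH1, IZH2 and IZH4 shared high levels at 120, 144 and 168 h and a low one at 240 h. IZH3 had part of this course in the same values. It was highest at 168 h (0.64) and 120 h (0.54) and at -0.50 at 240 h, but at 0.08 at 144 h. After quantile normalization the low 240 h level held for IZH1 (1.16) and IZH4 (-0.55) but not for IZH2 (3.12), and IZH2 was higher at 0, 192 and 264 h (4.09, 4.23 and 4.63) than at 168 h (3.77). The recovery of IZH4 from 240 to 264 h, 2.62 log2 units, was larger than that of 99.5% of genes (3.99 after quantile normalization), and IZH2 was 1.91 higher at 264 h than at 240 h.

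The first hour in the fermenter was compared directly. Between the arrays at 0 and 1 h, with 1 array each and no replicate check, all 4 IZH genes were lower at 1 h and all 5 transporters higher in median-centred values. IZH2 differed by -4.16 log2 units (17.9-fold), the third lowest of all 6051 rows. IZH4 differed by -1.93 (3.81-fold), IZH3 by -1.75 (3.37-fold) and IZH1 by -1.28 (2.42-fold). ZAP1 was also lower at 1 h, with a difference of -1.20. The direction of the IZH genes and of ZAP1 was the same after quantile normalization (-4.41, -2.34, -1.55 and -2.52 in the order above, and -1.04 for ZAP1), with equal median absolute deviations, and with a floor at the 5th percentile.

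Among the transporters ZRT1 differed by 2.22 (4.66-fold), ZRT3 by 1.08 (2.12-fold), ZRC1 by 0.90, ZRT2 by 0.56 and COT1 by 0.28. ZRT1 and ZRC1 did not keep their direction: after quantile normalization they differed by -0.21 and -1.20, and with equal median absolute deviations by 0.23 and -0.86. Of the transporters ZRT3, ZRT2 and COT1 stayed higher, by 0.52, 0.34 and 0.28 after quantile normalization. Past 4-fold, 1 member was higher (ZRT1) and 1 lower (IZH2), where 9.55% of all rows were higher and 4.15% lower by that much. After quantile normalization 0 members were higher and 3 lower past 4-fold (IZH1, IZH2 and IZH4), against 4.63% and 4.02% of all rows. With equal median absolute deviations 0 were again higher and the same 3 lower, against 5.21% and 2.48%. The members were chosen with these arrays known, so nothing is read from those counts. Without centring, the 1 h array was brighter by 1.35 log2 units in its median difference over all genes, and IZH1 had almost the same intensity on both (35922 and 36347 units).

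**Figure D2:**
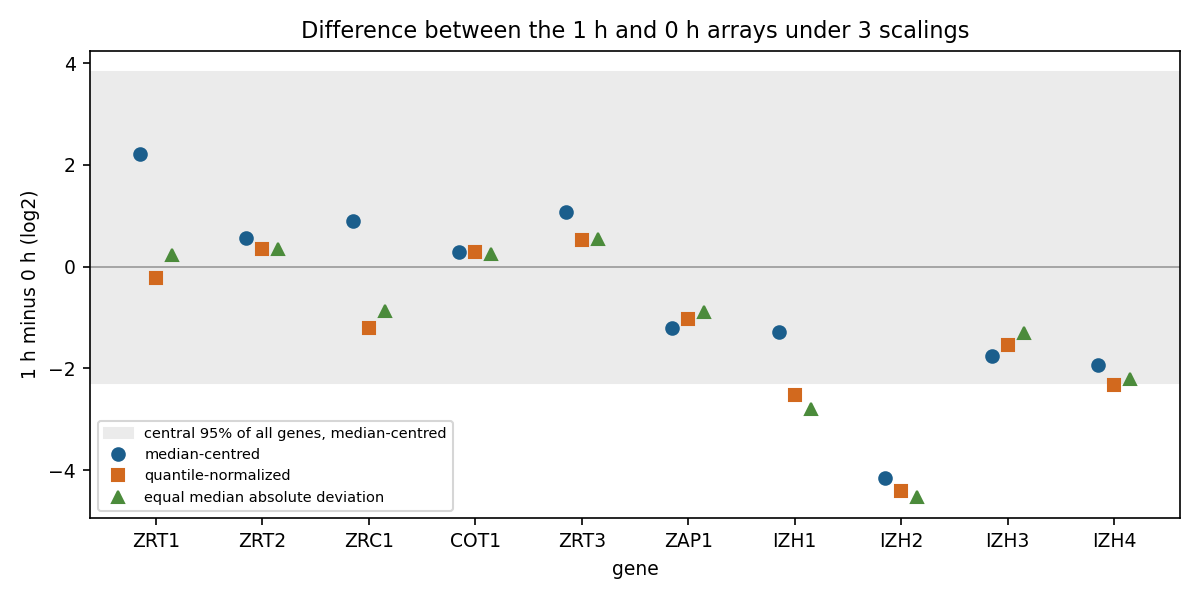
Difference between the 1 h and the 0 h array (log2) for each gene, 1 array per time, with median-centred values as circles, quantile-normalized values as squares and values scaled to equal median absolute deviation as triangles. The grey band is the central 95% of all genes in median-centred values, from -2.28 to 3.83. The 4 IZH genes lie below 0 under each of the 3 scalings, with IZH2 outside the band at -4.16, and ZRT1 and ZRC1 change sign with the scaling.

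Neighbouring times were pooled into 4 windows to set the members against a spread: 0 and 1 h (2 arrays), 24 to 72 h (3), 96 to 144 h (3) and 168 to 264 h (4). This spread holds array noise and real change between the times of a window, and all arrays may come from 1 fermentation. In limma's fit across all genes, 0 of the 10 members passed an adjusted p of 0.05 in any of the 3 comparisons of neighbouring windows, where 0% of all rows did. The share of rows with an unadjusted p under 0.05 was 2.83%, 7.04% and 1.57% in time order, with 0 members among them. Of the 30 member differences 4 were larger than their standard error and 0 larger than 2 standard errors, the errors running from 0.44 to 1.03.

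From 0 and 1 h to 24 to 72 h, 4 members were higher and 6 lower, with a median difference of -0.19 (all genes -0.08). IZH2 went from 1.68 ± 2.94 (SD, n = 2) to 2.53 ± 0.48 (n = 3), a difference of 0.85 with a standard error of 1.01. Its sign rested on which early array was used, being 2.94 when 0 h was left out and -1.23 when 1 h was left out. The same held for IZH4 (0.81; 1.78 and -0.15), IZH1 (0.43; 1.07 and -0.21, and -0.03 with equal median absolute deviations), IZH3 (-0.01; 0.86 and -0.89), ZRT1 (-0.63; -1.74 and 0.49) and, by a small margin, ZRC1 (-0.40; -0.85 and 0.05) and ZRT3 (-0.49; -1.03 and 0.05). COT1 went from -0.01 ± 0.20 (n = 2) to 0.60 ± 0.10 (n = 3), a difference of 0.61 with a standard error of 0.64. Its windows did not overlap, but the difference was below 2-fold. The share of all rows with no overlap at any size was not counted, so nothing is read from the lack of overlap.

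From 24 to 72 h to 96 to 144 h, all 4 IZH genes had higher means. IZH2 went from 2.53 ± 0.48 to 3.55 ± 0.98 (n = 3 each), a difference of 1.02 with a standard error of 0.91 (0.70 to 1.58 with single arrays left out). IZH4 differed by 0.70 (0.41 to 1.19), IZH3 by 0.51 (0.19 to 0.90) and IZH1 by 0.46 (0.17 to 0.88). Their arrays overlapped between the windows, with 96 h the lowest array of its window for each of the 4. After quantile normalization the 96 h levels of IZH1 (3.87) and IZH4 (2.24) lay above all of their 24 to 72 h levels, which reached 3.77 and 1.91. The median difference of the 10 members was 0.43 (all genes 0.00). ZRT1 (-0.03) and ZRT3 (-0.03) had no direction, and after quantile normalization they differed by 0.51 and 0.00.

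From 96 to 144 h to 168 to 264 h, the largest member difference was that of IZH1, from 4.37 ± 0.75 (n = 3) to 2.96 ± 2.24 (n = 4). The difference of -1.41 had a standard error of 0.86, and became -2.39 when 168 h was left out and -0.64 when 240 h was left out. ZRT1 differed by -0.87 (-1.77 without 168 h and -0.33 without 240 h) and IZH4 by -0.86 (-1.38 and -0.18). These wide spreads come from arrays within the late window, where 168 h was the highest array of the window for all 3 genes and 240 h the lowest. For ZRC1 (-0.52) and IZH2 (-0.38) the direction changed after quantile normalization, to 0.42 and 0.34, and IZH2 was also at 0.21 without 240 h. ZAP1 was higher later by 0.60, and by -0.00 without the 120 h array.

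At least 2-fold differences with no overlap of arrays were found for 0 members in all 3 comparisons, and after quantile normalization for 1, IZH4, at 96 to 144 h against 24 to 72 h (1.11). In median-centred values and in time order, 2.25%, 2.61% and 0.182% of all rows were higher by that rule and 1.92%, 5.19% and 0.314% lower. These shares were not counted after quantile normalization, so nothing is read from the result for IZH4.

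In median-centred values the courses of the IZH genes were alike across the arrays for most pairs, but little for IZH1 and IZH3. That exception depended on the scaling. For IZH1 and IZH3 r was 0.74 after quantile normalization and 0.59 with equal median absolute deviations. The 6 pairs of IZH genes had a median Pearson r of 0.72 over the 12 arrays (0.73 after quantile normalization), against 0.03 (0.20) for the other 39 pairs of members. IZH2 and IZH4 had an r of 0.88, IZH2 and IZH3 of 0.87, IZH1 and IZH4 of 0.82, IZH3 and IZH4 of 0.63, IZH1 and IZH2 of 0.62, and IZH1 and IZH3 of 0.34. All 6 were above 0 in each of the 6 ways of computing them, which also included Spearman's rho, equal median absolute deviations, and leaving out the 240 h array or the 0 and 1 h arrays. These values describe 12 arrays that were taken in time order and share a scaling, so neighbouring points are not independent. By likeness to IZH1 among 4451 rows, IZH4 stood 114th, IZH2 512th and IZH3 1209th, while ZRT1 stood 235th and ZRC1 325th. By likeness to IZH2, IZH4 stood 25th and IZH3 40th.

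Among the transporters ZRT1 and ZRC1 had an r of 0.90 in median-centred values, but of -0.19 after quantile normalization and 0.58 with equal median absolute deviations, so their likeness depended on the scaling. ZRT1 and IZH1 had an r of 0.75 and 0.73 in the first 2 of these scalings, and of 0.96 without the 0 and 1 h arrays. ZAP1, the activator, had an r between -0.36 (ZRT2) and 0.18 (ZRT3) with the other 9 members. The low signals named above are among its points.

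**Figure D3:**
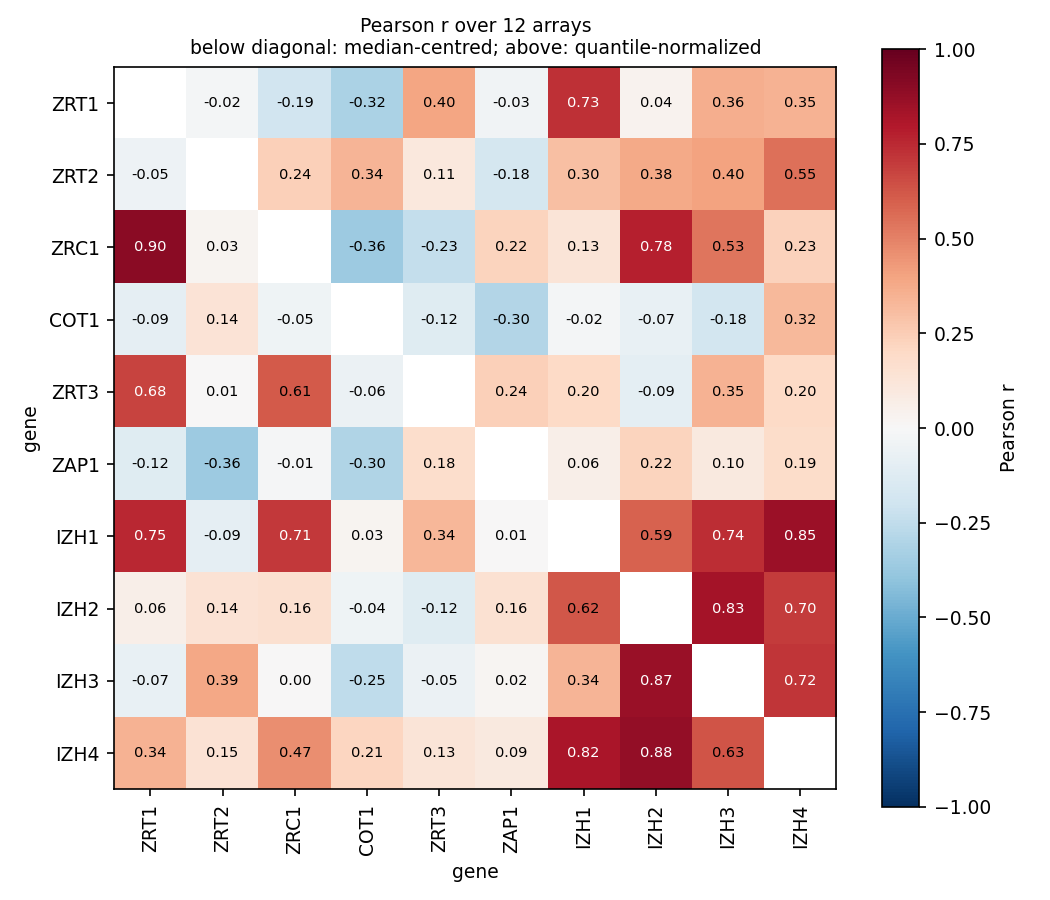
Pearson r between each pair of the 10 genes over 12 arrays, with median-centred values below the diagonal and quantile-normalized values above it; colours run from -1 (blue) to 1 (red). The IZH block at the lower right is positive on both sides of the diagonal, while ZRT1 and ZRC1 have 0.90 below and -0.19 above the diagonal.

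Among the other named genes with an SD of at least 0.5, those most like each member were found by the same r. For IZH1 they were MGA2 (0.96), which encodes a membrane-bound sensor of fatty acid saturation that activates the desaturase gene OLE1, the peroxisomal citrate synthase gene CIT2 (0.96) and NEM1 (0.95), whose protein helps control lipid synthesis at the nuclear membrane. After quantile normalization these were 0.81, 0.92 and 0.92. For IZH4 they were YNL134C (0.95), SCS7 (0.95), which encodes the hydroxylase of sphingolipid fatty acids, and AIM45 (0.92). For IZH2 they were the aldehyde dehydrogenase gene ALD3 (0.95), YNL134C (0.95) and PFK26 (0.95), which encodes a 6-phosphofructo-2-kinase. For IZH3 they were the protein kinase gene KNS1 (0.97), ICT1 (0.94) and REX3 (0.93).

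OLE1, from the list of fatty acid sensing genes, stood 7th among all rows, unnamed probes included, by likeness to IZH4 (r = 0.89), 14th for IZH1 (r = 0.92) and 105th for IZH2 (r = 0.80). By the same count MGA2 was 2nd for IZH1. With equal median absolute deviations the 3 values were 0.79, 0.89 and 0.86. Without the 0 and 1 h arrays r was 0.99 between IZH1 and OLE1 and 0.98 between IZH1 and MGA2, but 0.69 between IZH2 and OLE1 and 0.85 between IZH4 and OLE1. After quantile normalization the r of OLE1 was 0.72 with IZH1, 0.83 with IZH2 and 0.65 with IZH4, so IZH2 then had the highest value. OLE1 was the brightest gene on 6 of the 12 arrays, where that scaling gives it one fixed level. Whether this changed these values was not tested. IZH3 had an r of 0.50 with OLE1, 0.20 with MGA2 and 0.84 with SPT23, the paralogue of MGA2. After quantile normalization these were 0.65, 0.29 and 0.78, where IZH4 also had 0.65 with OLE1, and IZH2 had 0.11 with MGA2 and 0.70 with SPT23. MGA2 stood 92nd for IZH4, with an r of 0.77 (0.58 after quantile normalization). The other genes of the list had lower values with IZH1 and IZH4. SPT23 had an r of -0.06 with IZH1 and 0.24 with IZH4. For OAF1 and PIP2, which encode the paired activators of fatty acid oxidation genes, r was -0.15 and -0.34 with IZH1 and -0.59 and -0.08 with IZH4.

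**Figure D4:**
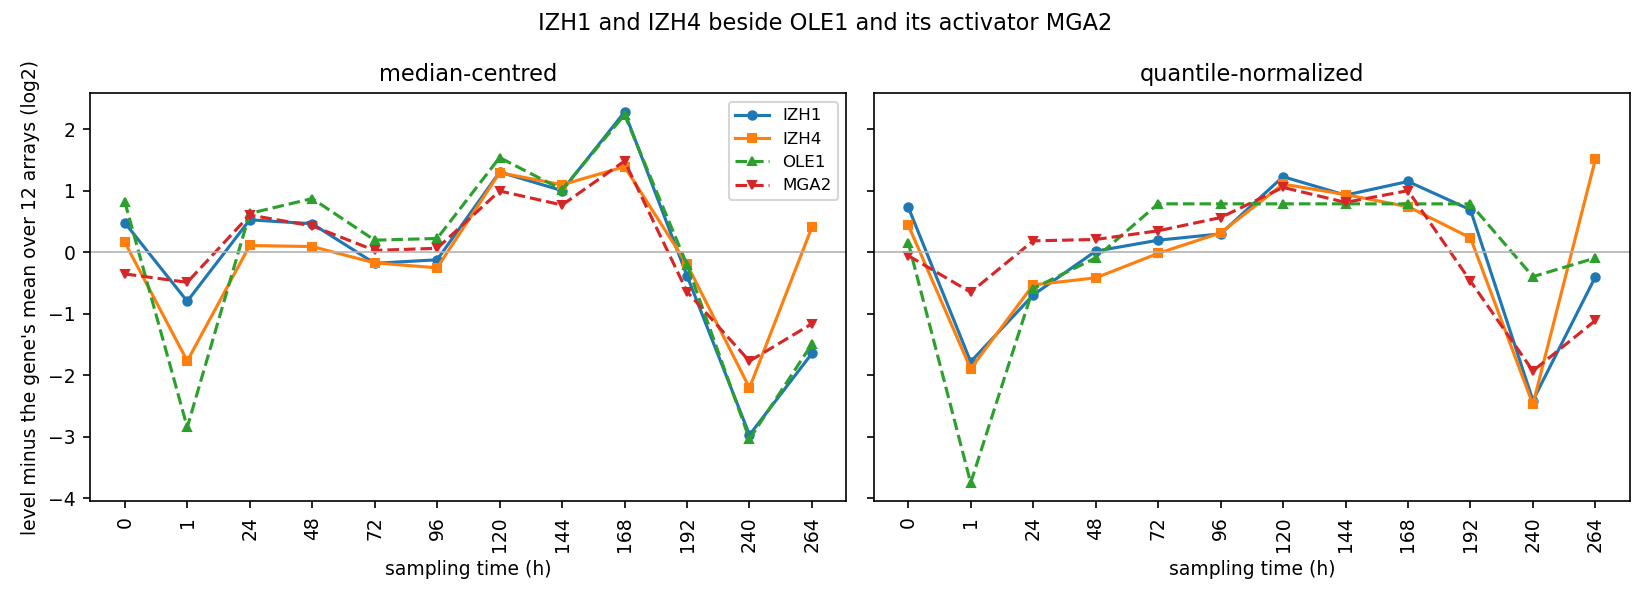
Level of IZH1, IZH4, OLE1 and MGA2 minus the mean of each gene over the 12 arrays (log2) against sampling time in hours, median-centred on the left and quantile-normalized on the right, 1 array per time. In median-centred values all 4 genes are highest at 168 h and lowest at 240 h, where IZH4 and OLE1 are close to their 1 h levels. After quantile normalization IZH1 and MGA2 are highest at 120 h and IZH4 at 264 h, and OLE1 is lowest at 1 h. The flat stretch of OLE1 on the right is where it is the brightest gene of the array.

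For ZRT1 the most similar genes were BRR6 (0.97), of the nuclear envelope, the pseudouridine synthase gene PUS2 (0.97) and CCW22 (0.96). For ZRT2 they were the ubiquitin ligase gene UFD4 (0.88), the dynein gene DYN3 (0.87) and STE6 (0.85), which encodes the exporter of the a-factor pheromone. ZRT3 was nearest to GID11 (0.89), UFD1 (0.89), a partner of Cdc48 in protein breakdown, and THO1 (0.86). COT1 was nearest to ARC35 (0.96), of the actin-nucleating Arp2/3 complex, the glutathione transferase gene GTT2 (0.90) and SNO4 (0.89). ZAP1 was nearest to SDS3 (0.85), of a histone deacetylase complex, the flocculin gene FLO11 (0.74) and MGE1 (0.73), a mitochondrial cochaperone gene. The 3 nearest to ZRC1 were COS12 (0.92), the vacuolar proton pump gene VMA4 (0.92) and FUN14 (0.91), and all 3 changed sign after quantile normalization. Each set comes from 4451 or 4452 rows compared on 12 arrays, unnamed probes among them, so these values only describe the courses.

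The wider set of zinc genes was described by the same comparisons. Of the genes that Zap1 activates in S. cerevisiae and that are not members, 18 were listed and 17 measured. In limma 0 of the 17 passed in either direction in any comparison of windows. At an unadjusted p under 0.05 there were 2, 2 and 1 in time order, where 2.83%, 7.04% and 1.57% of all rows were. The median differences of the 17 were -0.21, -0.28 and 0.03 log2 units (all genes -0.08, 0.00 and 0.03). From 0 and 1 h to 24 to 72 h 2 of the 17 were at least 2-fold higher with no overlap, where 2.25% of all rows were. TSA1, a peroxiredoxin gene, differed by 2.25 (SE 0.75) and DPP1, a lipid phosphatase gene, by 1.14 (SE 0.52). After quantile normalization these were 2.04 and 0.93, so DPP1 was then below 2-fold. ADH4, an alcohol dehydrogenase gene known for its induction in zinc-starved cells, had its highest levels at 24 and 48 h, 4.48 and 3.26, against 1.06 at 0 h and -0.37 at 264 h.

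From 24 to 72 h to 96 to 144 h, ADH4 differed by -1.93 (SE 0.70), the ethanolamine kinase gene EKI1 by 1.32 (SE 0.67) and the choline kinase gene CKI1 by -1.06 (SE 0.42). After quantile normalization these were -1.34, 1.01 and -1.06. Of these 3 genes CKI1 alone had no overlap between the windows, where 5.19% of all rows were at least 2-fold lower with no overlap. The EKI1 signals at 24, 72 and 120 h were among the dimmest 5% of their arrays, so the size of its difference cannot be told. TSA1 differed by -2.07 (SE 0.63) in the last comparison (-1.64 after quantile normalization). ZPS1, a gene that is strongly induced by zinc shortage in S. cerevisiae, was at -1.93 at 0 h and 1.23 at 1 h, a difference of 3.16 with 1 array each (3.06 after quantile normalization). It was the 1 gene of the 17 past 4-fold between these arrays, where 9.55% of all rows were higher by that much. At 0 h its signal was among the dimmest 5% of the array, so the size of this difference cannot be told. Its r with IZH2 was -0.75 over the 12 arrays and -0.43 without the 0 and 1 h arrays.

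None of 5 other zinc transporter genes (FET4, MSC2, ZRG17, YKE4 and PHO84) passed in limma or reached 2-fold with no overlap in any comparison of windows, and none had an unadjusted p under 0.05. Of 7 genes of zinc enzymes and their relatives, all 7 were higher at 1 h than at 0 h, with a median of 1.58, but after quantile normalization 4 of the 7 were, with a median of 0.01. From 0 and 1 h to 24 to 72 h, 3 of the 7 were higher and 4 lower. SOD1 (1.33, SE 0.73) and ADH5 (1.17, SE 0.57) were at least 2-fold higher with no overlap, where 2.25% of all rows were. Their differences were 1.20 and 0.92 after quantile normalization. All 7 had lower means at 96 to 144 h than at 24 to 72 h, with a median of -0.72. Among them FBA1, the zinc-dependent aldolase, differed by -2.17 (SE 0.76) and ADH1, the main alcohol dehydrogenase, by -1.37 (SE 0.65). Both had no overlap, where 5.19% of all rows were at least 2-fold lower with no overlap. After quantile normalization 6 of the 7 were lower, with a median of -0.32, FBA1 at -1.30, ADH1 at -0.65 and SOD1 at 0.07. In limma 0 of the 7 passed, with 0, 1 and 1 at an unadjusted p under 0.05 in time order (2.83%, 7.04% and 1.57% of all rows).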

How the data were processed

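The authors deposited linear probe intensities as whole numbers, per the values in the table. Which scanner, background correction or scaling they used is not given in the sources used here. Probes were named through the platform annotation (5523 of 6084 with 1 symbol, 561 with none, 0 with several). Intensities of 0 (3) were treated as missing, the probes of 32 symbols that had more than 1 were averaged as log2 values, rows needed a value on at least 9 arrays, and arrays were centred on their median. Windows were compared with limma 3.58.1 under R 4.3.3 (functions lmFit and eBayes, two-sided, Benjamini-Hochberg adjustment, 8 residual and 7.96 prior degrees of freedom), tested on simulated data. A difference called without a test was at least 2-fold with no overlap between windows, or 4-fold between 1 h and 0 h. The members and lists were chosen with earlier results of these data known. Named genes were the members and the 3 genes with a symbol and the highest Pearson r to each member (SD at least 0.5). BUB3 was named as the gene most unlike ZRC1. All genes of the lists of other zinc transporters and of fatty acid sensing were named. Of each remaining list up to 3 genes with the largest difference in a comparison were named, and SOD1 for its direction after quantile normalization. ICY2 was the listed gene with no row. No sequence was used. The number of arrays limits the precision. Figures were drawn with matplotlib 3.10.9. Alternatives were quantile normalization, no centring, equal median absolute deviations, a floor at the 5th percentile, removal of the dimmest 25% of genes, a trended prior, and leaving out each array. Removing the 240 h array from the ranges, and equal median absolute deviations for the likeness, were added after seeing the data.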

Additional observations from a re-analysis of the deposited data

How the results depend on the processing

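No paired analysis was possible because the labels give no replicate numbers and 1 array was taken per time. The count of 0 genes past the threshold in limma held in all 3 comparisons of windows under quantile normalization, no centring, equal median absolute deviations, removal of the dimmest 25% of genes and a trended prior. With single arrays left out it ran from 0 to 0 for both earlier comparisons and from 0 to 6 for 168 to 264 h against 96 to 144 h; the 6 were lower genes without the 168 h array, and 0 of them were members. Genes past 4-fold between 1 h and 0 h numbered 829 (578 higher and 251 lower), 523 after quantile normalization (280 and 243), 465 with equal median absolute deviations (315 and 150), 1838 without centring (1809 and 29) and 720 with the floor (554 and 166). Without centring, the median difference over all genes was 0.99, -1.13 and -0.94 log2 units between the windows in time order. The members spanning at least 4-fold numbered 6 after quantile normalization and with equal median absolute deviations, 8 with the floor, 10 without centring and 7 without the 240 h array, the last chosen after seeing the data. The difference of ZRT1 between 1 h and 0 h, 2.22, was -0.21 after quantile normalization. The r of ZRC1 with COS12, VMA4, FUN14 and BUB3 (its most unlike gene, -0.88) was then -0.27, -0.26, -0.25 and 0.52. With equal median absolute deviations, added after seeing the data, these were 0.56, 0.56, 0.44 and -0.29; the cause was not tested. Background signal was unknown, so low signals of ZAP1, COT1, ZPS1 and EKI1 have no known depth.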
